A study of Arabidopsis thaliana with 12 samples.

Results

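The change that dimethylthiourea (DMTU) brought to Arabidopsis T87 cells already exposed to abscisic acid (ABA) was taken from 6 of the study's 12 arrays, 3 labelled ABA+DMTU and 3 labelled ABA. T87 is a suspension culture of the Columbia background, grown for 5 days in medium that also held a synthetic auxin. ABA+DMTU cells received 50 µM ABA and 5 mM DMTU for 20 h, and ABA cells received 50 µM ABA for 20 h. The other 6 arrays, 3 of cells given 5 mM DMTU for 20 h and 3 of control cells given ethanol, served as the background without ABA. All 22746 probe sets of the 22810 on the array were compared, with only the 64 control probe sets left out. Each value is a log2 level that the authors normalized with RMA, so a change of 1 is a 2-fold change in signal.

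ABA is the plant hormone of drought and seed maturation. It acts through receptors, phosphatases and kinases to induce protective proteins such as late embryogenesis abundant (LEA) proteins and dehydrins, and in roots it also induces the deposition of suberin, a waxy wall polymer. Hydrogen peroxide made by NADPH oxidases is a second messenger of ABA in guard cells, and DMTU is a thiourea used to scavenge it, so the comparison asks which transcripts of ABA-treated cells change when such a scavenger is present.

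Before any gene is described, a difference in the arrays themselves has to be given. The dap, thr, phe and lys control RNAs, of Bacillus origin and usually added to a sample before labelling, were present on all arrays with DMTU and near background on all arrays without it. For dap, the mean log2 level of 6 probe sets was 6.46, 7.50 and 7.28 in ABA+DMTU arrays, against 3.45, 3.35 and 3.28 in ABA arrays. It was 7.29, 6.75 and 7.09 in DMTU arrays, against 3.37, 3.36 and 3.34 in control arrays. All 24 probe sets of the 4 control RNAs were higher in every ABA+DMTU array than in any ABA array, while those of trpn, a further control RNA, averaged 3.44 ± 0.02 in ABA+DMTU and 3.36 ± 0.01 in ABA arrays (SD, n = 3). The arrays with DMTU thus also carried added RNAs that the others lacked, and in ABA+DMTU against ABA the compound and a difference in sample preparation cannot be told apart. The interaction is ABA+DMTU minus ABA minus the difference of DMTU and control, and a shift that both DMTU groups share cancels in it. A probe set near background without ABA can hardly fall further there, so a fall with ABA gives a negative interaction whatever its source. The interaction is given beside the larger changes with this limit.

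**Figure D1:**
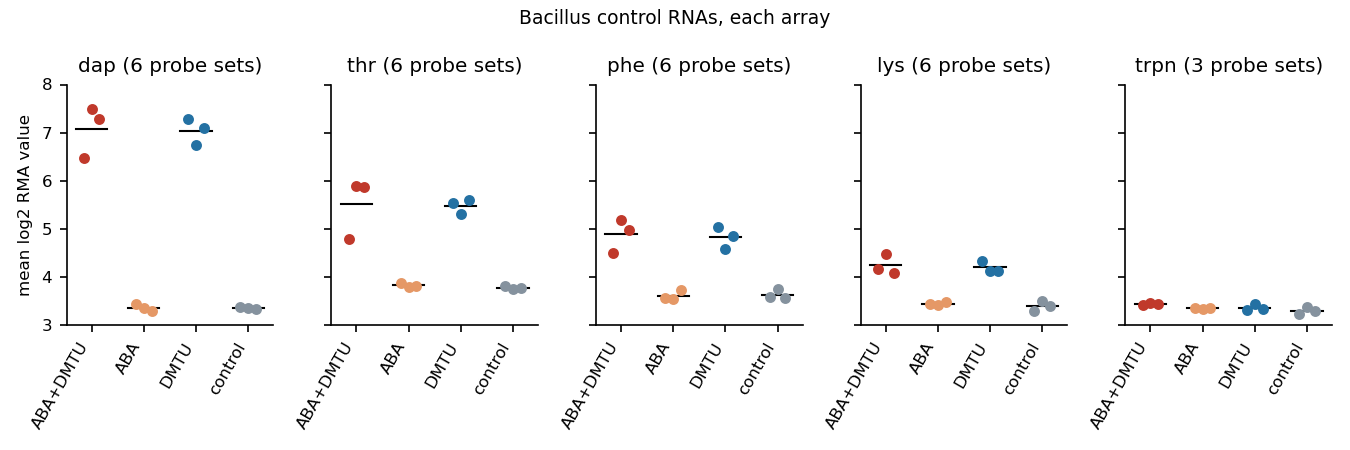
Mean log2 RMA value of the Bacillus control RNAs on each array (points), with the group mean (line), for ABA+DMTU, ABA, DMTU and control. The dap, thr, phe and lys RNAs lie higher on the 6 arrays with DMTU than on the 6 arrays without it, and trpn lies near 3.4 throughout.

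The arrays differed in other ways too. The 3′ minus 5′ difference of ubiquitin probe sets, a sign of RNA quality, was 1.10 ± 0.07 in ABA+DMTU and 0.67 ± 0.04 in ABA arrays, and that of actin was 3.31 ± 0.07 and 2.65 ± 0.09 in the same groups (SD, n = 3). That of GAPDH was 0.64 ± 0.45 and 0.59 ± 0.07, which did not differ beyond the spread. A second pair of GAPDH probe sets had 0.25 ± 0.24 and -0.05 ± 0.03. The ubiquitin difference was there without ABA too, at 1.36 ± 0.07 in DMTU and 0.92 ± 0.07 in control arrays. In those groups actin had 3.58 ± 0.12 and 3.20 ± 0.46, and GAPDH 0.41 ± 0.19 and 0.45 ± 0.10, neither beyond the spread. A second actin pair differed without overlap in both settings. It had 1.29 ± 0.13 in ABA+DMTU and 0.94 ± 0.08 in ABA arrays, and 1.09 ± 0.05 in DMTU and 0.76 ± 0.14 in control arrays. A second ubiquitin pair had 0.56 ± 0.15, 0.30 ± 0.10, 0.46 ± 0.05 and 0.33 ± 0.07 in the same order. The second GAPDH pair had 0.02 ± 0.05 in DMTU and -0.07 ± 0.19 in control arrays. Replicate 1 of ABA stood apart from its group, with differences from replicates 2 and 3 that had SDs of 0.505 and 0.465, against 0.174 between replicates 2 and 3. Replicate 1 of ABA+DMTU did so less, with 0.406 and 0.400 against 0.244, and replicate 1 of control did so with 0.565 and 0.550 against 0.167. No defining marker of T87 cells was on the gene lists. The markers of other cell types that could be matched, MUTE, SPCH, FMA, EXPA7 and EXPA18 of stomatal and root hair cells, had no call, and their group means lay at or near the low end of the scale. The lower quartile of an array lay between 3.84 and 3.98, and levels near it carry little information on how low a transcript is.

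ABA+DMTU cells differed from ABA cells in 3234 of 22746 probe sets (14.2%) at an adjusted p under 0.05 (limma, Benjamini-Hochberg), 1674 of them higher (7.36%) and 1560 lower (6.86%). The larger changes were mostly falls. At least 2-fold changes numbered 1044 (4.59%), 399 higher (1.75%) and 645 lower (2.84%), at least 8-fold changes 6 higher and 66 lower, and at least 16-fold changes 1 higher and 22 lower. The median change of all probe sets was 0.05, and 85.3% of them changed by less than 1.5-fold. The median SE of a change was 0.15, and the smallest change called was 0.28.

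The same compound without ABA gave 4013 calls (17.6%), 2135 higher (9.39%) and 1878 lower (8.26%), in DMTU against control arrays, which share no array with the comparison above. Of the 1674 probe sets higher in ABA+DMTU cells, 720 were also called higher in DMTU cells, which is 43.0% of that list and 33.7% of the rises without ABA. Of the 1560 lower ones, 676 were also called lower, which is 43.3% and 36.0%. Opposite calls numbered 13 and 15. Across all 22746 probe sets the changes with and without ABA correlated with r = 0.51 and rho = 0.53, a description across probe sets that also share the difference in control RNAs.

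The interaction was called for 638 probe sets (2.80%), 263 positive (1.16%) and 375 negative (1.65%). Among the 645 falls of at least 2-fold, 190 (29.5%) had a negative interaction, and among the 399 rises of at least 2-fold, 50 (12.5%) had a positive one. Both sets were chosen by the change with ABA, which is part of the interaction. Shares above those of all probe sets therefore follow in part from the choice. The 190 falls had median log2 levels of 5.08 in ABA+DMTU, 7.93 in ABA, 4.15 in DMTU and 4.23 in control arrays: these transcripts were abundant with ABA alone. The 453 falls with no call for the interaction had medians of 6.05, 7.70, 5.25 and 6.57 in the same order of groups, and 240 of them were also called lower in DMTU against control. Of the 190, 8 were, and 65 of the 190 had both means without ABA at or below 3.98, the highest lower quartile of an array. The 2 sets were split by the interaction, which includes the change without ABA. These contrasts in levels and calls therefore follow in part from the split.

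**Figure D2:**
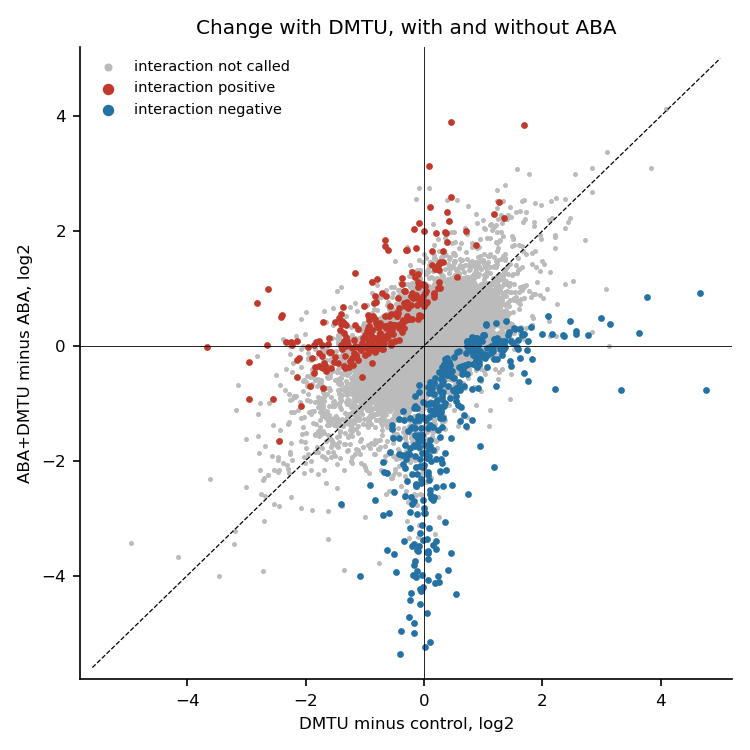
Log2 change of each of 22746 probe sets in ABA+DMTU against ABA (vertical axis) and in DMTU against control (horizontal axis), with the 263 positive and 375 negative interactions in colour and equal changes on the dashed line. A column of negative interactions falls by up to 5.36 with ABA and lies near 0 without it.

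Several of the largest falls were of transcripts that stood well above the low end on the ABA arrays alone. The gene lists here and below were chosen with earlier results of these data known, so shares of called members only describe the lists. Class III peroxidases are secreted haem enzymes that use hydrogen peroxide to cross-link wall polymers or that produce reactive oxygen species. Of 55 measured, 9 fell (16.4%, against 6.86% of all probe sets) and 3 rose (5.45%, against 7.36%). Their median change was -0.01, against 0.05 over all probe sets. AT1G68850 of this family had log2 levels of 3.89, 4.15 and 4.38 in ABA+DMTU cells, against 10.85, 8.80 and 8.86 in ABA cells. It had 3.32, 3.56 and 3.74 in DMTU cells and 4.10, 3.70 and 4.04 in control cells, so every array without ABA, and every array with ABA and DMTU, lay close to the low end. Its change of -5.36 ± 0.43 (SE; adjusted p = 2.6e-05, limma) was the largest fall of any probe set, and its interaction was -4.95 (adjusted p = 0.0022).

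A second peroxidase, AT2G35380, showed the same picture of levels. It had 3.66, 4.08 and 4.43 in ABA+DMTU cells, against 8.94, 7.75 and 7.68 in ABA cells, a change of -4.07 ± 0.30 with an interaction of -4.13 (adjusted p = 0.00058, limma). The arrays did not overlap, and its DMTU and control means were 3.57 and 3.51. AT4G26010 (-2.99) fell too, but its ABA+DMTU arrays were spread widely, at 5.00, 6.76 and 7.85, and its interaction of -3.24 was not called (adjusted p = 0.054, limma). Other peroxidases fell with DMTU in both settings: AT4G36430 changed by -2.83 with ABA and -2.08 without it, and AT5G39580 by -1.58 and -2.81. The peroxidase AT5G64120 (PRX71) had 8.39, 10.38 and 10.43 in ABA+DMTU cells, against 6.80, 8.37 and 8.08 in ABA cells, a rise of 1.98 ± 0.60 (adjusted p = 0.049, limma). The call was lost when replicate 2 or 3 of ABA+DMTU or any ABA array was left out: leaving out replicate 1 of ABA gave 1.51 with an adjusted p of 0.16 (limma).

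Of the 5 members measured from a list of suberin synthesis and deposition genes, 3 fell (60%, against 6.86% of all probe sets). The rises numbered 0 (against 7.36%), the median was -2.69 against 0.05 over all probe sets, and all 3 falls had negative interactions. This short list was also chosen with earlier results known, so its share is no independent result. AT3G22620 had 8.55, 10.28 and 10.97 in ABA+DMTU cells, against 13.58, 13.26 and 13.28 in ABA cells. Its DMTU and control means were 4.72 and 4.90, so ABA+DMTU cells stood between the cells without ABA and those with ABA alone. The change was -3.44 ± 0.46 (SE; adjusted p = 0.00070, limma), a 10.9-fold difference in signal. AT2G23540 had 3.46, 3.82 and 3.88 in ABA+DMTU cells, against 9.13, 7.58 and 7.23 in ABA cells, a change of -4.26 ± 0.37, and the ABA+DMTU arrays lay at the low end. AT1G74460 changed by -2.69 ± 0.43. The alcohol acyltransferase FACT (0.05) and AT5G37690 (-0.01) lay near the low end in all 4 groups.

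LEA proteins and dehydrins moved in both directions. LEA proteins are hydrophilic proteins of drying seeds and stressed tissue, and dehydrins are the subgroup that binds water and membranes. Of 35 measured, 12 fell (34.3%, against 6.86% of all probe sets) and 4 rose (11.4%, against 7.36%), the median was -0.02, with 8 negative interactions and 0 positive. AT3G15670 had 3.33, 3.72 and 3.80 in ABA+DMTU cells, against 8.53, 7.97 and 7.84 in ABA cells, a change of -4.50 ± 0.18 (SE; adjusted p = 7.7e-07, limma). Its ABA+DMTU arrays lay at the low end of the scale, as did its DMTU mean of 3.42 and its control mean of 3.49. LEA18 had 4.78, 4.92 and 4.48 in ABA+DMTU cells, against 8.60, 7.58 and 7.50 in ABA cells, a change of -3.17 ± 0.24. AT4G36600 (-2.90), AT3G53040 (-2.63), AT4G21020 (-2.33), AtLEA4-1 (-2.18) and AT3G17520 (-1.86) fell as well.

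LEA4-5 fell by less: it had 11.51, 11.18 and 11.24 in ABA+DMTU cells, against 12.65, 12.47 and 12.52 in ABA cells, a change of -1.24 ± 0.25 with an interaction of -1.22 that was not called (adjusted p = 0.11, limma). The groups did not overlap, and the DMTU and control means were 4.38 and 4.41, so the transcript stayed far above its level without ABA. The dehydrin LTI30 went the other way. It had 12.10, 13.28 and 13.37 in ABA+DMTU cells, against 9.72, 11.72 and 11.79 in ABA cells, a rise of 1.84 ± 0.50 (SE; adjusted p = 0.032, limma). It had 7.33, 7.62 and 7.00 in DMTU cells, against 4.33, 4.78 and 4.71 in control cells. The rise was there without ABA too (2.71), the interaction was -0.87 (adjusted p = 0.64, limma), and without replicate 1 of ABA the change with ABA was 1.16 (adjusted p = 0.053, limma).

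The small dehydrin AT1G54410 (HIRD11) differed from both. It had 8.73, 9.55 and 9.72 in ABA+DMTU cells, against 4.93, 7.40 and 7.45 in ABA cells, and 10.71, 10.40 and 9.10 in DMTU cells, against 8.79, 10.62 and 10.55 in control cells. ABA+DMTU cells were thus nearer the cells without ABA than those with ABA alone, with a change of 2.74 ± 0.71 (SE; adjusted p = 0.025, limma). It was 1.91 without replicate 1 of ABA (adjusted p = 0.064, limma), and the interaction of 2.66 was not called. Of 8 widely used ABA markers, which share members with this list, LTI30 and COR15B (0.94) rose (25%, against 7.36% of all probe sets). LEA18, HIS1-3 and LEA4-5 fell (37.5%, against 6.86%). The chloroplast-protective COR15A had 0.53 ± 0.27 (adjusted p = 0.24), the dehydrin COR47 0.85 ± 0.45 (adjusted p = 0.25) and AT3G02480 -0.77 ± 0.67 (adjusted p = 0.51), none of which passed the test (limma).

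**Figure D3:**
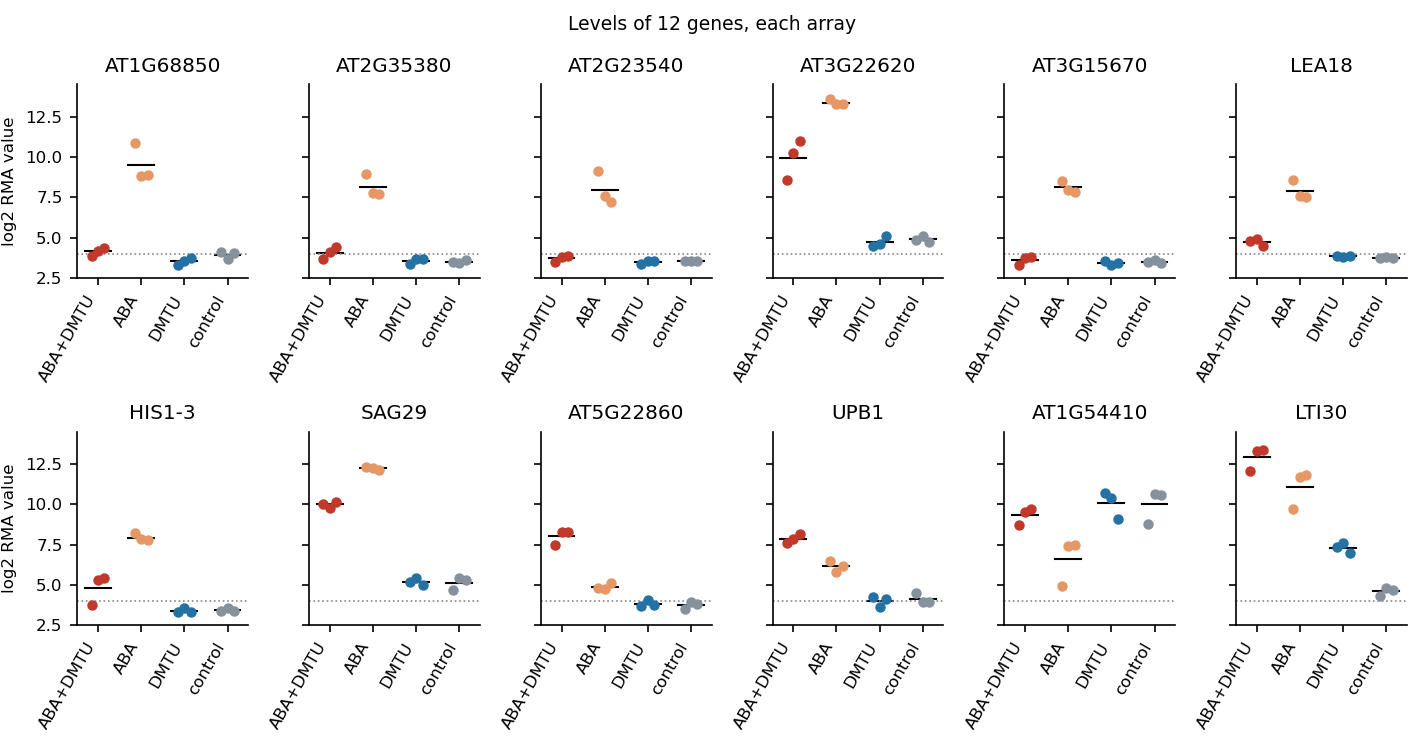
Log2 RMA value of 12 genes on each array (points) with the group mean (line), for ABA+DMTU, ABA, DMTU and control; the dotted line is the highest lower quartile of any array, 3.98. In 8 genes the ABA+DMTU arrays lie below the ABA arrays, and in AT5G22860, UPB1, AT1G54410 and LTI30 above them.

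Other genes with a symbol fell as well. HIS1-3, a drought- and ABA-induced linker histone, had 3.74, 5.28 and 5.41 in ABA+DMTU cells, against 8.19, 7.82 and 7.78 in ABA cells, a change of -3.12 ± 0.34 (SE; adjusted p = 0.00020, limma). SAG29, a sugar transporter of the SWEET family that marks senescence, had 10.03, 9.78 and 10.16 in ABA+DMTU cells, against 12.32, 12.25 and 12.16 in ABA cells, a change of -2.25 ± 0.19. These arrays were tightly grouped, and SAG29 in ABA+DMTU cells remained far above the DMTU and control means of 5.19 and 5.13. It was the only called member of 16 measured SWEET transporters (6.25% lower, against 6.86% of all probe sets).

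The outer plastid envelope channel ATOEP16-2, a seed-type form, changed by -2.23 ± 0.17, and the serine carboxypeptidase-like scpl28 by -2.36 ± 0.20, both with a negative interaction. GSO1, a receptor kinase needed for intact cuticle and endodermal barriers, changed by -2.59 ± 0.40, the purple acid phosphatase PAP20 by -2.30 ± 0.37 and the signalling peptide RALFL32 by -2.29 ± 0.38, with interactions of -2.27, -1.74 and -2.24 that were not called (adjusted p of 0.064, 0.12 and 0.052, limma). UGT71C1, a glycosyltransferase of phenylpropanoids and flavonoids, had 6.05, 4.85 and 5.80 in ABA+DMTU cells, against 9.01, 8.87 and 8.92 in ABA cells. Its change of -3.37 ± 0.35 stood beside -1.62 in DMTU against control cells, with an interaction of -1.75 that was not called (adjusted p = 0.10, limma). It was followed in its family of 51 by only 1 other fall, UGT85A5 (-0.67, and -0.51 with an adjusted p of 0.080 without replicate 1 of ABA, limma), and by 2 rises, UGT85A2 (0.63) and UGT76D1 (0.45). Both shares in this family, 3.92% lower and 3.92% higher, lay below the 6.86% and 7.36% of all probe sets.

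Of genes known by locus alone, AT2G22510 (-5.25 ± 0.64), AT3G50400 (-4.99 ± 0.66), AT5G12420 (-4.97 ± 0.63) and AT4G17215 (-4.42 ± 0.59) also fell steeply (adjusted p of 0.0007 or less, limma), each with a negative interaction. In all 4 the ABA array of replicate 1 was the highest. AT2G22510, for example, had 3.37, 3.76 and 3.98 in ABA+DMTU cells, against 11.02, 7.79 and 8.05 in ABA cells. All 3 ABA arrays were far above the ABA+DMTU arrays, and the change was -4.21 without replicate 1 of ABA. Oil body and seed storage transcripts were low throughout, and 2 of 9 fell (22.2%, against 6.86% of all probe sets). They were AT2G25890 and AT3G01570 (interactions of -1.09 and -0.83), both with ABA means under 5. None of the 7 cell cycle genes measured was called, with a median of 0.24, whereas 5 of 7 rose in DMTU against control (against 9.39% of all probe sets), with a median of 0.93. Their median level was only 4.74 in ABA+DMTU and 4.30 in ABA arrays, near the low end, which limits what the lack of calls with ABA can show. The highest by mean level, 3xHMG-box2, had means of 4.92 in ABA+DMTU, 4.59 in ABA, 10.15 in DMTU and 9.36 in control arrays. Only the aurora kinase AUR3 (-0.18 with ABA, 0.93 without it) had an interaction, of -1.12 (adjusted p = 0.024, limma).

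The rises of at least 2-fold were fewer than the falls, and a smaller share had an interaction of the same sign, with the limits given above. The largest among named genes was AT5G22860, which had 7.47, 8.25 and 8.30 in ABA+DMTU cells, against 4.78, 4.73 and 5.11 in ABA cells, and 3.70, 4.07 and 3.76 in DMTU cells, against 3.52, 3.91 and 3.83 in control cells. It was thus highest with both compounds, and ABA alone stood 1.12 above control (adjusted p = 0.0017, limma). The rise in ABA+DMTU against ABA was 3.14 ± 0.22 (SE, adjusted p = 8.3e-06, limma), with an interaction of 3.05 (adjusted p = 0.00056, limma). UPB1, a bHLH regulator that represses peroxidase genes in the root and so sets the balance of superoxide and hydrogen peroxide, had 7.61, 7.86 and 8.14 in ABA+DMTU cells, against 6.50, 5.81 and 6.18 in ABA cells. It had 4.23, 3.65 and 4.11 in DMTU cells, against 4.52, 3.94 and 3.94 in control cells. The change was 1.71 ± 0.23 and the interaction 1.84 (adjusted p = 0.015, limma).

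Other rises were much the same size without ABA. CDI, a cadmium-induced gene, had 9.09, 9.37 and 9.37 in ABA+DMTU cells, against 6.63, 7.33 and 7.43 in ABA cells, a change of 2.15 ± 0.20, and 1.67 in DMTU against control. QPT, an enzyme of NAD synthesis, rose by 1.62 ± 0.18 with ABA and 1.82 without it. PIFI, a chloroplast protein of chlororespiration, rose by 2.08 ± 0.32 and 1.86, and AT5G45570 by 3.10 ± 0.17 and 3.84. In these 4 genes the ABA+DMTU and ABA arrays did not overlap, and no interaction was called.

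The growth regulator ARL rose by 2.02 ± 0.33, the aldehyde dehydrogenase ALDH2C4 of ferulate synthesis by 1.59 ± 0.29 and OPCL1, a CoA ligase of jasmonate precursors, by 1.51 ± 0.21 (adjusted p of 0.0047 or less, limma). The actin-binding LIM protein WLIM2a had 8.36, 9.67 and 9.68 in ABA+DMTU cells, against 7.57, 7.84 and 7.80 in ABA cells, and passed the test as well (adjusted p = 0.0082, limma). The interactions of these 4 genes, 0.87 for ARL, 1.22 for ALDH2C4, 0.89 for OPCL1 and 0.86 for WLIM2a, were not called (adjusted p of 0.16 or more, limma). ALDH2C4 was the single call among 8 aldehyde dehydrogenases (12.5% higher, against 7.36% of all probe sets). The U-box ubiquitin ligase PUB25 had 6.50, 5.50 and 5.91 in ABA+DMTU cells, against 3.97, 4.64 and 4.60 in ABA cells, a rise of 1.57 ± 0.30 with an interaction of 1.25 that was not called. Its relatives PUB24 (0.91, and 0.81 with an adjusted p of 0.10 without replicate 1 of ABA, limma) and PUB22 (0.83) rose as well, while PUB19, known to act in ABA and drought responses, fell by 1.07 on the log2 scale in ABA+DMTU against ABA and had an interaction of -1.70. Of 22 ubiquitin-conjugating enzymes and U-box ligases, 4 rose (18.2%, against 7.36% of all probe sets) and 1 fell (4.55%, against 6.86%), with a median of 0.12. The largest rises on the array belonged to 2 probe sets unnamed here, 1 with a change of 4.13 beside 4.08 without ABA, and 1 with 3.89 and an interaction of 3.44.

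Of 8 measured peroxiredoxins, ascorbate peroxidases and reductases of the ascorbate-glutathione cycle, 1 rose (12.5%, against 7.36% of all probe sets) and 1 fell (12.5%, against 6.86%), with a median of -0.07. The stromal ascorbate peroxidase SAPX had 7.36, 7.01 and 7.01 in ABA+DMTU cells, against 8.94, 7.93 and 7.77 in ABA cells, a change of -1.09 ± 0.33 (SE; adjusted p = 0.048, limma). AT3G11630 changed by 0.88 ± 0.24. Neither call held without replicate 1 of ABA, where the values were -0.72 and 0.57 (adjusted p of 0.14 and 0.058, limma). None of the 3 NADPH oxidase genes measured passed the test. The nearest was AT1G19230, with 4.10, 5.38 and 5.05 in ABA+DMTU cells, against 8.32, 5.60 and 6.11 in ABA cells, a change of -1.83 ± 0.57 (adjusted p = 0.053, limma).

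Of 14 glutathione S-transferases, enzymes that conjugate glutathione to reactive compounds, only GSTU18 was called (7.14% lower, against 6.86% of all probe sets). It changed by -0.89 ± 0.22 in ABA+DMTU against ABA and by -1.56 in DMTU against control. Its change with ABA was -0.72 without replicate 1 of ABA (adjusted p = 0.068, limma). Of 9 oxidative stress markers, 1 rose (11.1%, against 7.36% of all probe sets), AT1G21520, by 1.17 ± 0.33 with an interaction of 1.96. Its change was 0.99 without replicate 1 of ABA (adjusted p = 0.11, limma). The zinc finger STZ (-0.41) and the transferase GSTU25 (0.07) did not pass. The 5 alternative NAD(P)H dehydrogenases of mitochondria had no call, with changes from 0.03 for NDB2 to 0.36 for NDB1. Of 5 genes on a list of sulfate assimilation and glutathione synthesis, 3 rose (60%, against 7.36% of all probe sets), with a median of 0.38. They were AT1G04770 (1.22 ± 0.31), whose place on the list was not checked, and the ATP sulfurylases APS3 (0.47) and APS4 (0.38). Of these 3 calls only that of AT1G04770 held without replicate 1 of ABA.

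Of 12 heat shock genes, chaperones that protect proteins under stress, 3 rose (25%, against 7.36% of all probe sets) and 0 fell (against 6.86%). The FKBP-type cochaperone AT5G48570 (ROF2) had 6.33, 7.53 and 7.41 in ABA+DMTU cells, against 4.22, 5.21 and 5.02 in ABA cells, a rise of 2.27 ± 0.36 (SE; adjusted p = 0.0020, limma), with an interaction of 0.98 that was not called. AT3G09440 rose by 0.69 with an interaction of 1.01. The iron deficiency regulator PYE rose by 0.98 ± 0.26 with ABA and 2.07 without it. It was the 1 call among 10 iron genes (10% higher, against 7.36% of all probe sets). AT1G47400 had 7.77, 7.77 and 8.10 in ABA+DMTU cells, against 3.13, 5.70 and 5.50 in ABA cells, and its change of 3.10 ± 1.02 did not pass (adjusted p = 0.068, limma). The arrays did not overlap, but replicate 1 of ABA lay far below replicates 2 and 3.

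Core hypoxia genes are induced in plants when oxygen is short. In DMTU against control cells 9 of 18 rose (against 9.39% of all probe sets) and 0 fell (against 8.26%). In ABA+DMTU against ABA cells AT1G74940 (1.20) rose (5.56%, against 7.36%) and AT4G17670 (-1.03) fell (5.56%, against 6.86%). Both of these shares lay below those of all probe sets. A negative interaction was called for 4 of 18 (against 1.65%). AT4G10270 had 6.75, 4.12 and 5.14 in ABA+DMTU cells, against 4.74, 4.17 and 4.35 in ABA cells, and 9.37, 9.84 and 8.73 in DMTU cells, against 5.27, 4.35 and 4.35 in control cells. The groups with ABA overlapped and those without it did not, and the interaction was -3.74 (adjusted p = 0.029, limma). Of 128 cytosolic ribosomal proteins, 4 rose (3.125%, against 7.36%) and 1 fell (0.78%, against 6.86%) in ABA+DMTU cells, with a median of 0.04. Without ABA 24 rose (against 9.39% of all probe sets), with a median of 0.31, and 1 had an interaction.

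Autophagy genes, which build the vesicles that deliver cell contents to the vacuole, had falls alone among their calls. Of 11 measured, 10 had a change below 0, as had 9767 of all 22746 probe sets, and 3 fell (27.3%, against 6.86%): AT5G66930 (ATG101) with -1.28 ± 0.37, ATG8B with -0.90 ± 0.24 and APG8A with -0.66 ± 0.19. The median was -0.41 with ABA and -0.51 without it, and no call was left without replicate 1 of ABA. Of 7 WRKY factors measured, WRKY53 of senescence rose (0.92, with an adjusted p of 0.056 without replicate 1 of ABA, limma), which is 14.3% against 7.36% of all probe sets. WRKY47 (-0.80) and WRKY6 (-0.53) fell (28.6%, against 6.86%). Of the 2 auxin-conjugating genes called, GH3.3 had 0.46 at the low end of the scale and WES1 (GH3.5) had 9.23, 9.32 and 9.41 in ABA+DMTU cells, against 10.60, 9.75 and 9.88 in ABA cells, a change of -0.76 ± 0.21 that was -0.50 without replicate 1 of ABA (adjusted p = 0.075, limma). They were the only calls among 15 auxin responsive genes (6.67% higher, against 7.36% of all probe sets, and 6.67% lower, against 6.86%).

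**Figure D4:**
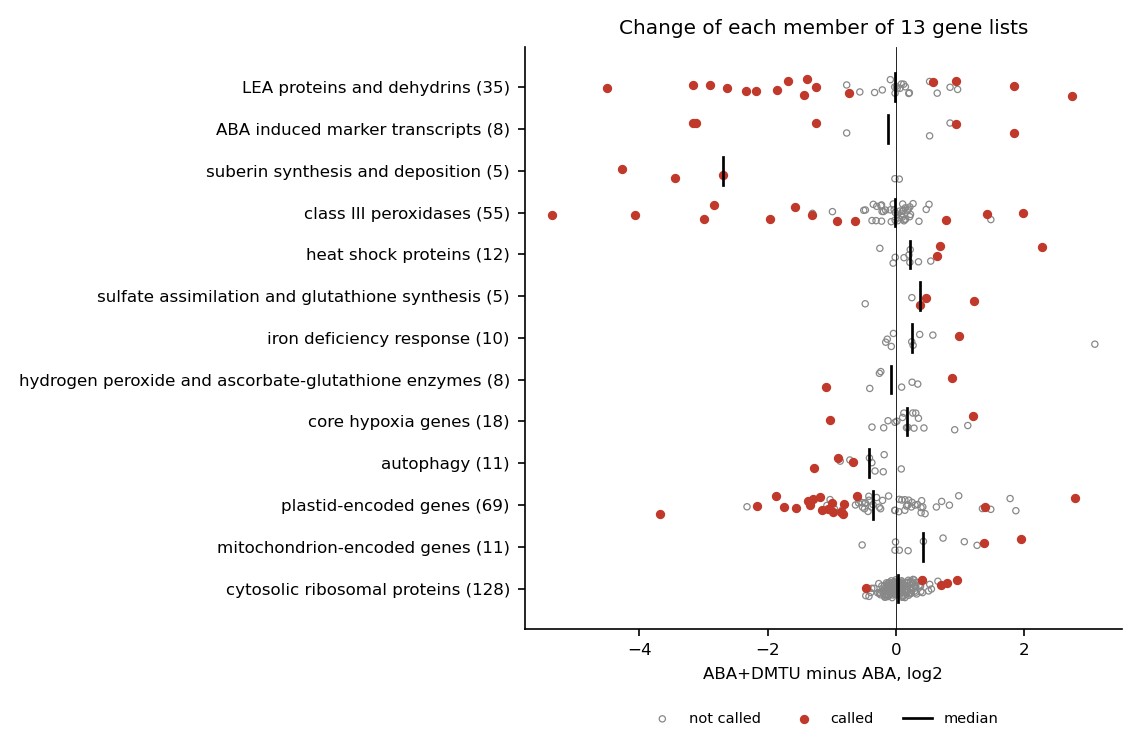
Log2 change in ABA+DMTU against ABA of each measured member of 13 gene lists (list size in brackets), with called members filled and the median as a bar. Suberin genes have a median of -2.69, LEA proteins and class III peroxidases hold steep falls around medians near 0, and ribosomal proteins lie close to 0.

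Of 69 plastid-encoded genes measured, 17 fell (24.6%, against 6.86% of all probe sets) and 2 rose (2.90%, against 7.36%) in ABA+DMTU cells, with a median of -0.35. In DMTU against control 30 fell (against 8.26% of all probe sets) and 1 rose (against 9.39%), with a median of -0.66. None had an interaction. The photosystem I core gene psaA had 7.31, 6.47 and 5.71 in ABA+DMTU cells, against 9.94, 10.26 and 10.31 in ABA cells, a change of -3.67 ± 0.35 (SE; adjusted p = 8.2e-05, limma) beside -4.15 without ABA. The photosystem assembly factor ycf4 (-2.17), psbH of photosystem II (-1.87), the envelope protein gene cemA (-1.75) and the ribosomal protein genes rpl36 (-1.56) and rps18 (-1.36) also fell. The 2 rises were psbA and rbcL: psbA of photosystem II had 10.55, 9.65 and 8.28 in ABA+DMTU cells, against 7.50, 5.63 and 6.97 in ABA cells, a change of 2.79 ± 0.57, and rbcL, the large subunit of Rubisco, rose by 1.39 ± 0.33.

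Of 11 mitochondrion-encoded genes, 2 rose (18.2%, against 7.36% of all probe sets) and 0 fell. The oxidase subunit gene cox1 had 7.30, 7.89 and 5.95 in ABA+DMTU cells, against 5.31, 4.93 and 5.04 in ABA cells, a change of 1.95 ± 0.39, and nad5 of complex I rose by 1.37 and 0.87 at its 2 probe sets, the first with an adjusted p of 0.053 without replicate 1 of ABA (limma). Organelle transcripts are mostly not polyadenylated, and their labelling from a 3′ kit was not measured here. Sample preparation and DMTU cannot be told apart in these values. Of 11 nuclear photosynthesis genes, PIFI rose (9.09%, against 7.36% of all probe sets) and PHYLLO, an enzyme of phylloquinone synthesis, fell (9.09%, against 6.86%). The median was 0.29, and PHYLLO changed by -2.30 with ABA and -2.70 without it. In DMTU against control 6 of 11 fell (against 8.26% of all probe sets) and 1 rose, with a median of -0.50, and none had an interaction.

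Some falls were seen by 1 probe set of a gene and not by another. This was noticed after the values were seen. The 145 nuclear genes with 2 or more probe sets had 151 dimmer probe sets, by mean level over the 12 arrays, beside the brightest of each gene. Of the dimmer ones 54 fell (35.8%, against 6.86% of all probe sets) and 3 rose in ABA+DMTU cells, and of the 145 brightest 9 fell and 16 rose. Where the dimmer probe set fell, its median change was -1.25 and that of the brightest probe set of the same gene was -0.02, with 46 of the 54 brightest not called, 5 lower and 3 higher. Of the 54 falls, 49 were also called in DMTU against control and 0 had a negative interaction.

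The DNA demethylase DME changed by -1.76 ± 0.23 at 1 probe set and by -0.15 and -0.14 at the others. AT2G07360 changed by -2.22 ± 0.20 at its dimmer and 0.36 ± 0.13 at its brighter probe set. SIZ1, a SUMO ligase with roles in stress and ABA responses, fell at both probe sets, by unequal amounts. Its dimmer probe set had 5.00, 4.97 and 5.07 in ABA+DMTU cells, against 7.72, 7.53 and 7.63 in ABA cells, a change of -2.62 ± 0.16, and its brighter one had 8.13, 8.29 and 8.44, against 9.44, 9.12 and 9.03, a change of -0.91 ± 0.16. For genes with 1 probe set this disagreement cannot be seen. PHYLLO (-2.30) and ATATH8 (-2.20, and -2.47 without ABA), which fell as much in DMTU against control, have 1 named probe set each, and their falls and those of the interaction-free group as a whole were not tested against it. None of the falls named above with a negative interaction has a second named probe set.

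**Figure D5:**
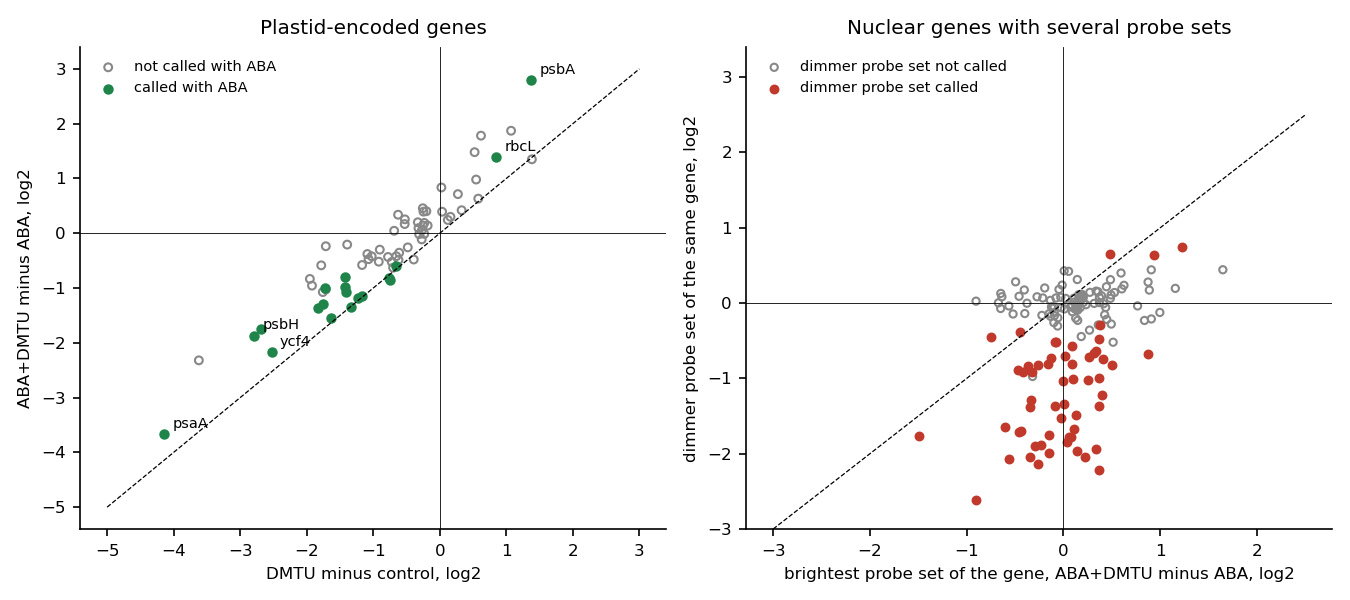
Left, log2 change of 69 plastid-encoded genes in ABA+DMTU against ABA (vertical) and in DMTU against control (horizontal), with equal changes on the dashed line: psaA is lowest and psbA highest. Right, log2 change in ABA+DMTU against ABA of 151 dimmer probe sets (vertical) and of the brightest probe set of the same gene (horizontal): 54 of the dimmer ones fell, mostly with the brightest near 0.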

How the data were processed

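RNA of T87 cells was labelled with a 3′ kit and hybridised to 12 single-colour arrays, per the labels' protocols. The values are the authors' deposited log2 levels per probe set, and RMA and limma are named per the submitters' processing notes. They were used as deposited, with no further normalization. It is not given in the sources used here whether the 12 were normalized together. The tests did not use the 64 control probe sets. The platform annotation names 1 gene for 13513 of the 22746 probe sets, several for 503 and none for 8730, and only 1579 have a symbol, so genes missing from the text are mostly unnamed here. A list member is a locus, and its list was assembled from general knowledge.

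Linear models were fitted per probe set (limma 3.58.1, lmFit and eBayes, two-sided; R 4.3.3), 1 mean for each of the groups, all 12 arrays and 8 residual degrees of freedom. Benjamini-Hochberg adjustment ran over 22746 probe sets, with calls at 0.05. The fit was run on simulated data with independent noise of the same size on each array. It called 77 of 100 changes of 1 and 95 of 100 changes of 2 on the log2 scale, with 9 false calls. Such noise holds no replicate that stands apart, so this run cannot show how the calls fare with the spread seen here. Errors of changes are SEs, and those of levels are SDs of 3 arrays. The number of arrays limits the precision. Nothing in the labels ties a replicate to a culture of its own, so the spread behind the p-values is that of these arrays and could be technical. Same-numbered replicates of ABA+DMTU and ABA did not deviate together (r of -0.11, -0.17 and -0.02), so they were not treated as pairs. For DMTU and control r was 0.20, -0.06 and 0.13. Replicates of ABA and control were not compared in this way. Replicate 1 stood apart in both, and in AT1G54410 it was the lowest of each group, so a deviation shared by these 2 groups is possible. The main fit treats all arrays as independent. Tables and plots used Python 3.11.15, pandas 2.3.3 and matplotlib 3.10.9.

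Named genes were the 12 largest rises and falls with a symbol, the 6 largest each known by locus alone, all called, at least 2-fold and without overlap, up to 2 called members of each of 39 lists per direction, and, for lists without a call, the brightest member. Other names were chosen after their values were seen. The members and lists were chosen with earlier results of these data known. Alternatives covered scaling, filters, weights, blocks and left-out arrays.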

Additional observations from a re-analysis of the deposited data

Results flagged for a closer look

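The dap, thr, phe and lys control RNAs, which no comparison uses, gave signal with DMTU: ABA+DMTU minus ABA was 3.72 for dap, 1.69 for thr, 1.28 for phe and 0.80 for lys, as means of 6 probe sets each, and DMTU minus control was 3.68, 1.70, 1.19 and 0.79 in the same order.

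For 24 of the 95 genes named by rule, the change with DMTU differed between cells with and without ABA by the interaction test (limma, adjusted p under 0.05 over all probe sets). The interaction was called for 2.8% of all probe sets. Most of the 95 were named for their change in ABA+DMTU against ABA, which is part of the interaction. The count of 24 therefore follows in part from that choice. The limit for transcripts near background without ABA, given above, holds here too. The change was more negative with ABA, by interactions on the log2 scale of -5.27 for AT2G22510, -4.95 for AT1G68850, -4.82 for AT3G50400, -4.58 for AT5G12420, -4.43 for AT3G15670, -4.21 for AT2G23540, -4.17 for AT4G17215 and -4.13 for AT2G35380. It was -3.27 for AT3G22620, -3.25 for LEA18, -3.09 for HIS1-3, -2.31 for SAG29, -2.07 for scpl28, -2.02 for ATOEP16-2, -1.70 for PUB19 and -1.60 for AT4G17670. It was -1.09 for AT2G25890, and -0.83 for both AT3G01570 and WRKY6. The change was more positive with ABA for AT5G22860 (3.05), PMEPCRF (2.25), AT1G21520 (1.96), UPB1 (1.84) and AT3G09440 (1.01). For PMEPCRF, a pectin methylesterase, the difference lay in the cells without ABA: it had 10.90, 10.28 and 10.68 in ABA+DMTU cells, against 10.32, 10.76 and 10.76 in ABA cells, but 6.80, 6.60 and 6.38 in DMTU cells, against 8.87, 8.80 and 8.82 in control cells.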

How the results depend on the processing

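The 3234 calls of ABA+DMTU against ABA kept within 1.5 times of that number under centring, quantile normalization, a trended robust fit, leaving out dim probe sets, and the replicate block over 12 arrays (3320). With array quality weights there were 7542, and with the 6 arrays alone and a replicate block 1365, of which 1244 were among the 3234. Leaving out 1 array gave 2160 to 4356. DMTU against control had 4013 calls, 8008 with array weights, and 2559 to 4537 with 1 array left out (2559 without DMTU replicate 2). The interaction was the least steady: 638 calls became 3097 with array weights, 308 among probe sets above the median level, 1243 without replicate 1 of both control and ABA, and 291 to 795 with 1 array left out. Under the 308, 57.1% were positive, against 41.2% of the 638. It had fewer than 638 divided by 1.5 calls without ABA+DMTU replicate 2 (370) or 3 (411), ABA replicate 3 (343), DMTU replicate 1 (395) or 2 (291), and control replicate 2 (416) or 3 (385). Centring moved the share of rises in DMTU against control to 48.5%, against 53.2%. Of the 95 genes named by rule, none of the 89 called ones changed sign under the 21 settings run (51 genes where dim probe sets were left out); of the 6 not called, NDB2, 3xHMG-box2, PMEPCRF and ILR3 did under at least 1. With the 6 arrays and a replicate block 36 of the 95 lost their call, without replicate 2 of ABA+DMTU 26, and without replicate 1 of ABA 21. Without replicate 1 of ABA, the lists of autophagy genes, glutathione S-transferases, oxidative stress markers and hydrogen peroxide enzymes had 0 calls. The causes were not tested. Levels near the low end limit the size of steep falls.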
